A study of Homo sapiens with 4 samples.

Results

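The data describe 10 genes that encode cytokine receptor chains, out of 39259 genes in the table, in libraries of the breast cancer line MDA-MB-231 labelled as knockout (KO) for mdig and in wild-type (WT) libraries of the same line. The chains are IL7R, IL2RG, IL4R and IL13RA1, which serve interleukins 7, 4 and 13, then IL6R, IL6ST, LIFR and OSMR of the interleukin-6 family, and IL10RB and IFNGR1 of the interleukin-10 and interferon families. The set was chosen by measured values: IL7R was taken because it lay among the genes with the largest drop in the KO against WT contrast, and the other 9 were listed with it as related receptors. The KO against WT values of all 10 are therefore given as a description, without a p-value.

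MDA-MB-231 is an established triple-negative breast cancer line with a mesenchymal-like phenotype. The mdig gene, also called MINA53 and now RIOX2, encodes a JmjC-domain oxygenase that acts on a ribosomal protein and has been linked to histone methylation. The 2 KO and 2 WT libraries came from total RNA of cells grown in the same serum-containing medium with no further treatment. The labels give neither the method of the knockout, nor whether the KO cells are 1 clone, nor whether the replicates of a group came from separate cultures, so a p-value here speaks only of the scatter among the libraries sequenced, and that scatter may be technical.

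RIOX2, the targeted gene, stood at 9.23 and 9.82 FPKM in the libraries labelled KO, against 8.60 and 8.24 FPKM in WT, where FPKM is a fragment count scaled to the gene's exon length and the library's total. Both libraries labelled KO thus had at least as much of its RNA as WT, and a gene-level value does not show an edit within the transcript, so these libraries are named by their label throughout. The libraries held between 22503981 and 52163811 fragments, the WT replicate 2 library being the shallowest. Mitochondrial genes took 6.54% to 7.91% of them. Lymphocyte genes were near 0: none of 14 markers passed the filter of a mean of 1 FPKM, 4 (CD3G, CD2 and MS4A1 among them) were at 0 in every library, and the markers summed to 0.560 and 0.674 FPKM in the libraries labelled KO and to 1.26 and 1.35 FPKM in WT, with CD8A the highest single marker at 0.252 and 0.251 FPKM with the KO label and 0.642 and 0.684 FPKM in WT. None of 8 myeloid markers passed either, FCGR3A was at 0 in every library, and their sums were 2.49 and 2.25 FPKM with the KO label and 2.51 and 2.55 FPKM in WT. Vimentin (VIM), a mesenchymal marker of the line, was at 2000.0 and 2000.0 FPKM with the KO label and 2275 and 2394 FPKM in WT and was called lower. Of the 10 line markers 7 were tested, and 2 (CD44 and EPCAM) were called higher and 2 (VIM and KRT18) lower. That is 57.1%, beside 49.9% over all genes tested. Each of these calls was lost when either library labelled KO was left out. With the median log2 difference of each gene's 20 Mb stretch subtracted, CD44 (0.17), VIM (0.10) and KRT18 (−0.02) were not called. Their limma adjusted p-values were then 0.0653, 0.241 and 0.796, while EPCAM (0.31) was still called. The epithelial cadherin CDH1 was below the filter, at 0.597 and 0.625 FPKM with the KO label and 0.177 and 0.128 FPKM in WT, and the oestrogen and progesterone receptors ESR1 and PGR were at or near 0.

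Cytokine receptors of types I and II have no enzyme activity of their own. Ligand binding brings chains together, the JAK kinases bound to their tails phosphorylate each other and the receptor, and STAT transcription factors docked there move to the nucleus. Signalling chains are shared: IL2RG (the common gamma chain) joins IL7R for interleukin-7 and IL4R for interleukin-4, IL4R also pairs with IL13RA1 for interleukins 4 and 13, gp130 (IL6ST) joins IL6R, LIFR or OSMR, and IL10RB joins several ligand-binding chains. IL7R is best known from lymphocyte development, whereas gp130, OSMR, IL4R with IL13RA1, and the interferon-gamma receptor are widely present on epithelial and mesenchymal cells.

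The sequences upstream of 3 of these genes are shown because they set the lymphoid-type genes IL7R and IL2RG beside the ubiquitously used IL6ST. Each run is the 250 bases before the first RefSeq transcription start in GRCh38.p14, written 5′ to 3′ on the gene's own strand. IL7R lies at chr5:35856641-35856890 on the plus strand, IL2RG at chrX:71111578-71111827 on the minus strand and IL6ST at chr5:55994964-55995213 on the minus strand. Capitals mark matches, on either strand, to 4 short motifs: GGAAGT for ETS factors including GABPA, TGTGGT for RUNX factors, GTAAACA for FOXO factors and TTCNNNGAA for STAT factors.
IL7R: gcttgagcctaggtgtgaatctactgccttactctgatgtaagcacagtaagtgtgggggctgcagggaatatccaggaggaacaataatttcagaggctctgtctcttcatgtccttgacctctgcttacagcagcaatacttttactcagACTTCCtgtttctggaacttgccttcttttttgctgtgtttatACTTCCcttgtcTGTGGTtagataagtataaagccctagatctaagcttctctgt
IL2RG: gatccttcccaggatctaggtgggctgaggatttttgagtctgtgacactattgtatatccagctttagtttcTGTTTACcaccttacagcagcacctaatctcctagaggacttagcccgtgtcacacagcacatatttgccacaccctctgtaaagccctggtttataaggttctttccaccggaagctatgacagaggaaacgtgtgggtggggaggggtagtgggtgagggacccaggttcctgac
IL6ST: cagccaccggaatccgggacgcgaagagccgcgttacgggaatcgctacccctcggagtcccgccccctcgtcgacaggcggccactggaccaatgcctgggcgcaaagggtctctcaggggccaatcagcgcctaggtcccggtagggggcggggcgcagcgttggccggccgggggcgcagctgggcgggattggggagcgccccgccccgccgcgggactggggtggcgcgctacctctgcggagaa

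The IL7R window was poor in G and C (43.6%) and held no CpG dinucleotide. It held 2 ETS matches, both read as ACTTCC on the strand shown, and 1 RUNX match. The IL2RG window was 50% G and C, with 3 CpG dinucleotides and 1 FOXO match. The IL6ST window was 73.6% G and C with 31 CpG dinucleotides and held none of the 4 motifs. Across 35116 RefSeq windows of 250 bases the median was 58.0% G and C with 11 CpG dinucleotides. The ETS letters occurred in 19.5% of those windows, the RUNX letters in 11%, the FOXO letters in 2.98% and the STAT letters in 6.57%. All 10 receptor genes matched, with 13 windows since LIFR has 3 and IFNGR1 has 2. Outside IL7R and IL2RG, the windows of IL4R, IL13RA1, IL6R, IL6ST, OSMR, IL10RB and IFNGR1 were each above 60% G and C, and LIFR had 1 rich and 2 poor windows. A match is a string of letters and says nothing of a bound factor.

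IL7R, chosen for its drop in this contrast, showed the largest KO against WT difference of the 10 genes. The gene (Entrez 3575) spans chr5:35856891-35879603, plus strand. It encodes the alpha chain that binds interleukin-7, and with CRLF2 it binds thymic stromal lymphopoietin (TSLP). It measured 3.25 and 3.57 FPKM in the libraries labelled KO, from 727 and 854 fragments, against 13.1 and 12.0 FPKM in WT, from 2708 and 1243 fragments. Both libraries labelled KO lay far below both WT libraries. The means were 3.41 ± 0.226 FPKM with the KO label and 12.6 ± 0.727 FPKM in WT (SD, n = 2 each), a level 3.68 times higher in WT. The difference in mean log2(FPKM + 1) was −1.62 with a standard error (SE) of 0.07, the fold on this scale being understated for low genes; from fragment counts with voom it was −1.89. It held rank 14 among the 11716 tested genes ordered from the most negative difference. In bulk RNA, fewer cells with the transcript and less of it per cell cannot be told apart.

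**Figure D1:**
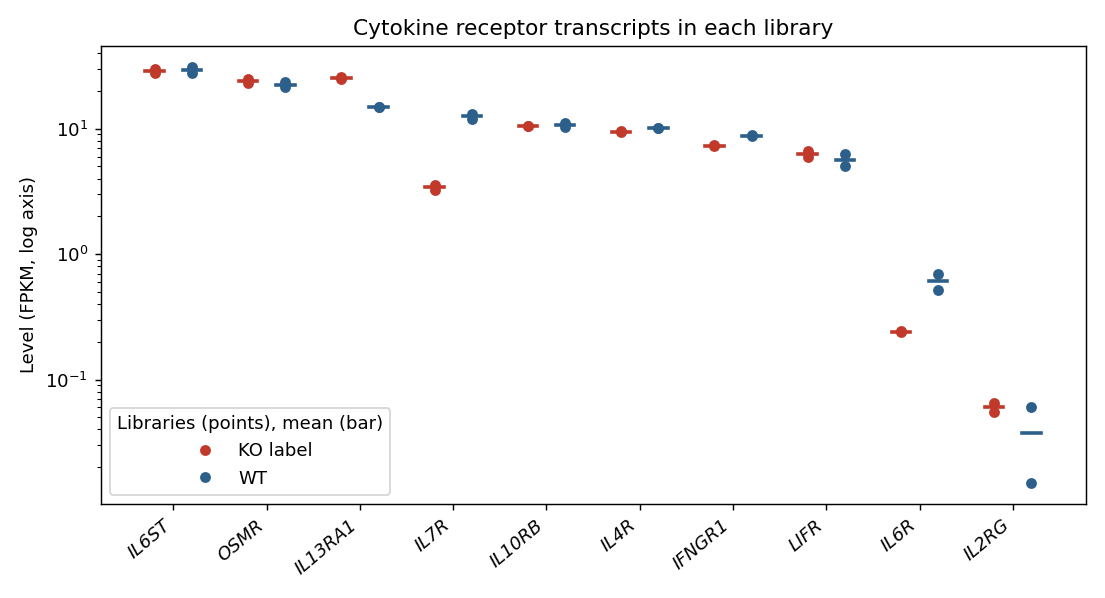
Level of each of the 10 receptor genes in FPKM on a log axis, with the libraries labelled KO (red) left of the WT libraries (blue); points are libraries and bars are group means. IL7R sits at 3.25 and 3.57 FPKM in the libraries labelled KO and at 13.1 and 12.0 FPKM in WT, the groups of IL13RA1 stand apart at 25.2 and 15.0 FPKM on average, and IL6R and IL2RG lie below 1 FPKM in all 4 libraries.

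IL2RG (Entrez 3561, chrX:71107404-71111577, minus strand), the partner that IL7R needs for interleukin-7, was almost undetected. It had 4 and 5 fragments with the KO label and 1 and 2 fragments in WT, or 0.0554 and 0.0648 FPKM against 0.0150 and 0.0600 FPKM. A count of 3 fragments corresponds to between 0.0389 and 0.0901 FPKM for this gene, so no library stood clearly above that floor. The KO over WT rate ratio was 2.01 with an exact 95% interval of 0.502 to 11.6, which covers counting error only, and a difference was not detectable at this depth. JAK3, the kinase bound to the gamma chain, was also below the filter, at 0.224 and 0.279 FPKM with the KO label and 0.759 and 0.794 FPKM in WT. CRLF2, the partner for TSLP, measured 0.180 and 0.192 FPKM with the KO label, against 0.276 and 0.271 FPKM in WT. The exact 95% interval of its rate ratio, 0.488 to 0.945, again covers counting error only.

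Of the 2 chains of the type II interleukin-4 receptor, IL13RA1 was clearly higher with the KO label and IL4R differed little. IL13RA1 (Entrez 3597, chrX:118726954-118794533, plus strand) measured 24.7 and 25.7 FPKM in the libraries labelled KO, against 15.0 and 15.0 FPKM in WT. The groups did not overlap, the level was 1.68 times higher with the KO label and the log2 difference was 0.71 (SE 0.05), rank 253 among differences ordered from the most positive. The 57 other tested genes in its stretch of 20 Mb had a median difference of 0.36, and with that regional median subtracted IL13RA1 differed by 0.36. The part of the regional shift in the result was not tested further. For IL7R the same median over 30 genes was 0.02, and IL7R differed by −1.64 after its subtraction. IL4R (Entrez 3566, chr16:27313668-27364778, plus strand), which binds interleukin-4 and joins both receptor types, was at 9.48 and 9.52 FPKM with the KO label and 10.2 and 10.2 FPKM in WT. Its groups did not overlap, but the log2 difference was −0.09 (SE 0.05), and −0.0047 with its regional median subtracted. The ratio of IL13RA1 to IL4R within a library was 2.61 and 2.70 with the KO label, against 1.47 and 1.48 in WT.

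The gp130-family chains IL6ST and OSMR were among the most abundant of the set, and with LIFR they differed little between the groups. IL6ST (Entrez 3572, chr5:55935095-55994963, minus strand), the shared signal-transducing chain, was at 28.0 and 30.2 FPKM with the KO label and 31.2 and 27.7 FPKM in WT. These ranges overlapped, and the log2 difference of −0.02 (SE 0.07) turned to 0.04 with quantile normalization and 0.03 with median-of-ratios scaling. OSMR (Entrez 9180, chr5:38846012-38945579, plus strand), which pairs with gp130 for oncostatin M and with IL31RA for interleukin-31, was at 23.0 and 25.0 FPKM with the KO label and 23.4 and 21.4 FPKM in WT. LIFR (Entrez 3977, chr5:38474668-38606290, minus strand), the gp130 partner for leukaemia inhibitory factor (LIF), was at 5.97 and 6.62 FPKM with the KO label and 6.27 and 5.08 FPKM in WT. Both genes had overlapping groups, with log2 differences of 0.10 (SE 0.07) for OSMR and 0.13 (SE 0.09) for LIFR. The lowest value of OSMR and of LIFR, and of IL6ST, came from the WT replicate 2 library. Without WT replicate 1, so with that library alone for WT, the differences were 0.15 for OSMR and 0.26 for LIFR, and without WT replicate 2 they were 0.04 and 0.00. OSMR runs into RICTOR on the opposite strand at its 3′ end and LIFR overlaps the antisense gene LIFR-AS1; the strand used for counting is not given in the sources used here, so reads in the shared stretches cannot be told apart.

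IL6R (Entrez 3570, chr1:154405343-154469450, plus strand) binds interleukin-6 and gives cells the classical response to it; its shed form can also act with gp130 on cells that lack it. It measured 0.237 and 0.242 FPKM in the libraries labelled KO, from 77 and 84 fragments, against 0.519 and 0.694 FPKM in WT, from 156 and 104 fragments. The groups did not overlap. Over pooled fragments the KO over WT rate ratio was 0.415, with an exact 95% interval of 0.339 to 0.507 for counting error only. Its mean was below the 1 FPKM filter, so it had no place in the fit across genes, and on the log2(FPKM + 1) scale the difference of means was −0.37.

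The 2 type II chains were at moderate levels. IL10RB (Entrez 3588, chr21:33266367-33297221, plus strand), the accessory chain for interleukins 10, 22 and 26 and for type III interferons, was at 10.5 and 10.4 FPKM with the KO label and 11.1 and 10.3 FPKM in WT. These ranges overlapped, and the log2 difference of −0.03 (SE 0.06) turned to 0.01 with median-of-ratios scaling. IFNGR1 (Entrez 3459, chr6:137197484-137220351, minus strand), the ligand-binding chain for interferon-gamma, was at 7.28 and 7.40 FPKM with the KO label and 8.84 and 8.73 FPKM in WT. Its groups did not overlap, and the log2 difference was −0.23 (SE 0.06). The signal chain IFNGR2 was at 15.6 and 16.3 FPKM with the KO label and 16.1 and 17.3 FPKM in WT, so the IFNGR2 to IFNGR1 ratio was 2.15 and 2.20 against 1.82 and 1.99.

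Of the 10 genes, 8 passed the filter of a mean of 1 FPKM and entered the fit across genes with limma, in which a gene was called at a Benjamini-Hochberg adjusted p under 0.05. The fit called 49.9% of all 11716 tested genes, 21.6% higher and 28.4% lower with the KO label. Among the 8 receptors it placed 1 (IL13RA1) past the threshold on the higher side and 2 (IL7R and IFNGR1) on the lower side, or 37.5%, a count from which nothing is read because the genes were chosen on this contrast. IFNGR1 no longer passed without either library labelled KO, with differences of −0.22 and −0.24, and LIFR and OSMR passed without WT replicate 1. The median difference of the 8 receptors was −0.02, beside −0.04 over all genes tested.

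With the KO label the levels ran from IL6ST (29.1 FPKM) through IL13RA1 (25.2), OSMR (24.0), IL10RB (10.5), IL4R (9.5), IFNGR1 (7.34), LIFR (6.29) and IL7R (3.41) to IL6R (0.240) and IL2RG (0.0601 FPKM). In that order IL13RA1 and OSMR overlapped in their library ranges. In WT the levels ran from IL6ST (29.5 FPKM) through OSMR (22.4), IL13RA1 (15.0), IL7R (12.6), IL10RB (10.7), IL4R (10.2), IFNGR1 (8.79) and LIFR (5.68) to IL6R (0.607) and IL2RG (0.0375 FPKM). IL7R thus held place 8 with the KO label, against place 4 in WT. All other neighbours in both orders had library ranges that did not overlap, with only 2 libraries each. The 10 genes summed to 112.5 and 118.8 FPKM with the KO label and 119.6 and 111.2 FPKM in WT. IL7R supplied 2.89% and 3.01% of that sum with the KO label and 10.9% and 10.8% in WT, whereas IL13RA1 supplied 22.0% and 21.6% with the KO label and 12.5% and 13.5% in WT.

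**Figure D2:**
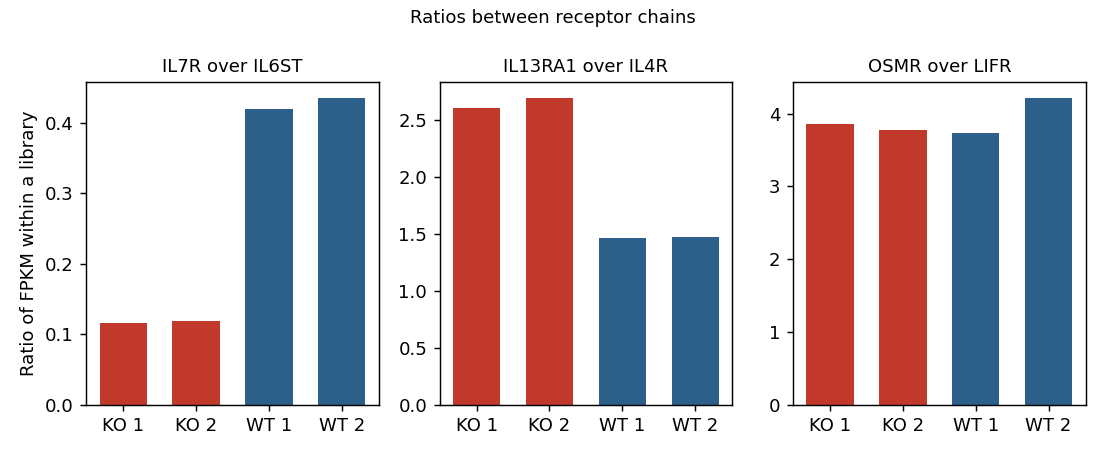
Ratio of FPKM between pairs of receptor genes in each library, 1 bar per library, with the libraries labelled KO (red) left of WT (blue) and each axis starting at 0. IL7R over IL6ST is 0.116 and 0.118 with the KO label and 0.419 and 0.436 in WT, IL13RA1 over IL4R is higher in both libraries labelled KO, and OSMR over LIFR overlaps between the groups.

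Within a library the ratios leave scaling between libraries aside. IL7R over IL6ST was 0.116 and 0.118 with the KO label, against 0.419 and 0.436 in WT. OSMR over LIFR was 3.85 and 3.78 with the KO label and 3.73 and 4.22 in WT, so these groups overlapped. A ratio shows an unequal difference between 2 genes, not which of them differed.

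IL7R, LIFR and OSMR all lie on the short arm of chromosome 5, with LIFR and OSMR starting 2617.8 and 2989.1 kb beyond the start of IL7R. The difference at IL7R was not shared by the tested genes around it. Within 2 Mb on either side 13 other genes were tested, with differences between −0.28 and 0.25 and a median of 0.01. Of these 1 (NIPBL, the cohesin loader) was called higher and 1 (NIPBL-DT, its divergent transcript) lower. The closest tested gene, LMBRD2, was at 3.19 and 3.25 FPKM with the KO label and 3.0 and 2.5 FPKM in WT. Within 4 Mb there were 25 other tested genes, 3 called higher and 1 lower, and the largest difference was 0.72 for the metalloprotease gene ADAMTS12. Over all genes tested 49.9% were called, 21.6% higher and 28.4% lower. Genes below the filter are not in these counts. Among them PRLR, a type I receptor gene starting at chr5:35048756, was also lower with the KO label. It was at 0.0315 and 0.0250 FPKM with the KO label, against 0.175 and 0.177 FPKM in WT. That rests on 20 and 17 fragments with the KO label and 103 and 52 in WT, a level 6.24 times higher in WT. These neighbours were named after their values were seen.

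**Figure D3:**
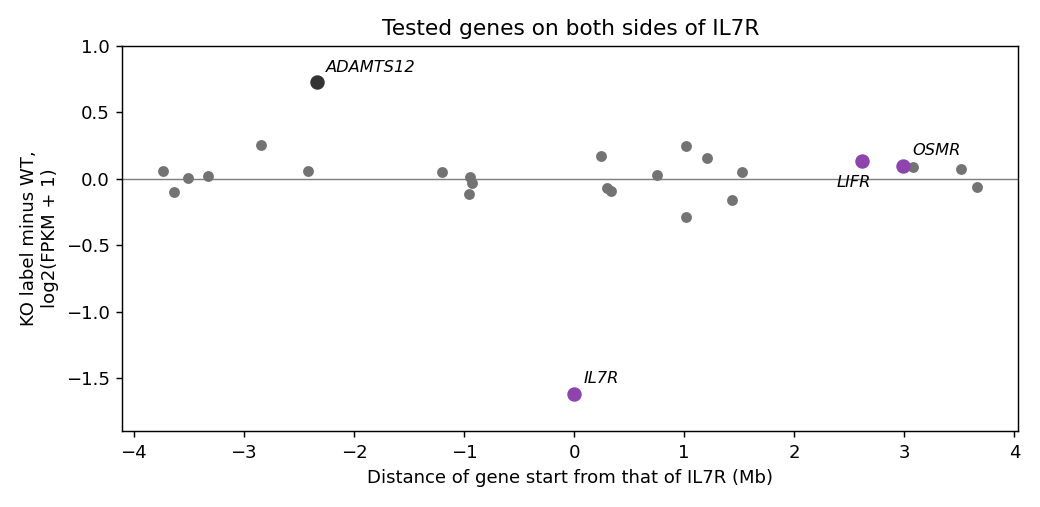
Difference between libraries labelled KO and WT in mean log2(FPKM + 1) for tested genes, against the distance of each gene's start from that of IL7R in megabases. Among the tested genes IL7R, chosen for its drop in this contrast, stands alone at −1.62. Its 25 tested neighbours, LIFR and OSMR among them, lie between −0.28 and 0.72. Genes below the filter are not shown.

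The genes whose levels ran most like IL7R over the 4 libraries, by Euclidean distance between centred log2(FPKM + 1) profiles among 10609 tested protein-coding genes, were CST2 (distance 0.137), MYH10 (0.169), SPANXB1 (0.178), IL24 (0.193) and COX7B2 (0.204). CST2, a secreted cystatin, was at 2.53 and 2.80 FPKM with the KO label and 10.5 and 11.0 FPKM in WT, and MYH10, a non-muscle myosin heavy chain, at 2.09 and 2.24 FPKM with the KO label and 8.29 and 7.17 FPKM in WT. CST2 and SPANXB1 belong to families with near-identical copies, so their counts are uncertain. With 2 groups of 2 libraries, likeness here means a similar difference between the groups.

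Receptors beyond the 10 were mostly silent or low. Of 34 other type I and type II chains 23 were below the filter, and IL2RA, IL13RA2, IL12RB2, IL23R and IL22RA2 were at 0 in every library. Also below it, IL21R had 33 and 33 fragments with the KO label and 5 and 1 in WT. IL22RA1 was higher with the KO label as well, whereas CRLF2, IL20RA, IL20RB and PRLR were lower, all without overlap. Of the 11 tested, 2 rose and 3 fell with the KO label, or 45.5%, beside 49.9% over all genes, with a median of 0.07. LEPR, the leptin receptor of the gp130-like class, rose to 2.53 and 2.51 FPKM with the KO label, against 1.25 and 1.12 FPKM in WT (log2 difference 0.69, SE 0.06, limma adjusted p = 0.000128), and its stretch of 20 Mb had a median of 0.22. IFNLR1, the IL10RB partner for type III interferons, rose to 1.93 and 1.93 FPKM, against 1.40 and 1.26 FPKM in WT (0.33, SE 0.07, limma adjusted p = 0.00384). With the regional median of 0.24 subtracted it differed by 0.09 and was not called (adjusted p = 0.337). IL27RA, the gp130 partner for interleukin-27, fell to 3.38 and 3.19 FPKM, against 4.88 and 4.56 FPKM in WT (−0.42, SE 0.06, limma adjusted p = 0.0011), of which −0.25 was left after its regional median was subtracted. IFNAR2, a chain of the type I interferon receptor, fell to 2.67 and 2.64 FPKM, against 3.40 and 3.64 FPKM in WT (−0.31, SE 0.06). CSF2RA, the GM-CSF receptor alpha chain, fell by 0.25, but was not called when either library labelled KO was left out (adjusted p = 0.124 without KO replicate 1 and 0.0713 without KO replicate 2). It lies in the region shared by X and Y, and its counts depend on how copies were handled.

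**Figure D4:**
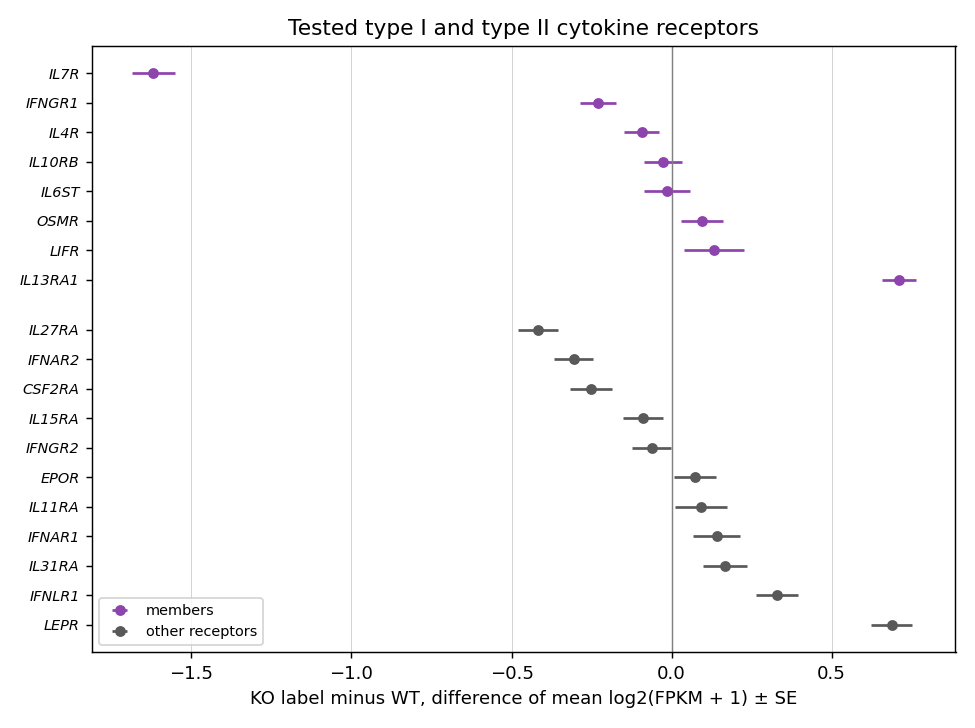
Difference between libraries labelled KO and WT in mean log2(FPKM + 1) with its SE for the 8 tested members of the set (purple) and 11 other tested cytokine receptors (grey). IL7R, chosen for its drop in this contrast, stands at −1.62, and the other 18 receptors range from −0.42 to 0.71.

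Among 25 ligands of these receptors and of their relatives, 7 were expressed above the filter, of which 2 rose, 1 fell and 4 were not called, 42.9% called beside 49.9% over all genes. IL7, the ligand of IL7R, was below the filter at 0.210 and 0.180 FPKM with the KO label, against 0.134 and 0.0837 FPKM in WT. TSLP, the other IL7R ligand, had 0 fragments in both libraries labelled KO and 2 and 1 fragments in WT. IL6, the ligand of IL6R, rose to 4.96 and 5.23 FPKM with the KO label, against 2.98 and 2.73 FPKM in WT (log2 difference 0.66, SE 0.06, limma adjusted p = 0.000148). IL15, which signals through the gamma chain, rose to 2.15 and 2.17 FPKM, against 0.902 and 0.865 FPKM in WT (0.75, SE 0.06, limma adjusted p = 7.63e-05); its stretch of 20 Mb had a median of 0.45, and 0.29 was left after subtraction. IL24, whose receptors are built from IL20RA, IL20RB and IL22RA1, fell to 0.478 and 0.522 FPKM, against 3.61 and 4.07 FPKM in WT (−1.69, SE 0.07).

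The other 4 ligands above the filter, all of which act through gp130 as IL6 does, were not called. LIF was at 19.0 and 18.7 FPKM with the KO label and 19.5 and 19.5 FPKM in WT, a difference of −0.04 (SE 0.05). CLCF1 was at 16.2 and 17.0 FPKM with the KO label and 15.9 and 16.8 FPKM in WT, and IL11 at 13.0 and 12.7 FPKM with the KO label and 11.5 and 13.5 FPKM in WT. CTF1, or cardiotrophin-1, was at 1.99 and 1.84 FPKM with the KO label and 1.74 and 1.77 FPKM in WT. LIF was thus present beside its receptor LIFR in all 4 libraries, whereas OSM, the ligand of OSMR, was below 0.03 FPKM in every library.

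Of the 10 JAK and STAT genes reported here 8 were tested, of which 2 rose, or 25.0% beside 49.9% over all genes, with a median of 0.04. JAK1, which binds most of these receptors, rose to 22.5 and 23.2 FPKM with the KO label, against 18.5 and 17.2 FPKM in WT (log2 difference 0.34, SE 0.06, limma adjusted p = 0.00202). With the median of 0.22 of its 20 Mb stretch subtracted it differed by 0.12 and was not called (adjusted p = 0.151). JAK2 rose by 0.23, to 1.80 and 1.94 FPKM against 1.46 and 1.42 FPKM in WT, and its call was lost with either library labelled KO left out (adjusted p = 0.0687 without KO replicate 1 and 0.171 without KO replicate 2). STAT3, the main factor below gp130, had overlapping groups, at 34.2 and 35.0 FPKM with the KO label and 36.0 and 32.4 FPKM in WT.

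Of 18 inhibitors of cytokine signalling 14 were tested, of which 3 rose and 6 fell, or 64.3% beside 49.9% over all genes, with a median of −0.12. PTPN6, the phosphatase SHP-1, rose to 3.61 and 3.45 FPKM with the KO label, against 2.19 and 2.25 FPKM in WT (log2 difference 0.49, SE 0.06, limma adjusted p = 0.000414). SOCS2, a feedback inhibitor induced by STAT5, fell to 0.980 and 0.910 FPKM, against 1.51 and 1.58 FPKM in WT (−0.39, SE 0.06, limma adjusted p = 0.00172). PTPN1, a phosphatase acting on JAK2 and TYK2, fell by 0.27, but 0.06 was left of that fall after the regional median was subtracted (adjusted p = 0.418). PTPN11, the phosphatase SHP2, fell by 0.26 and PTPN2, which acts on JAK1 and nuclear STATs, fell by 0.26. PTPN11 was not called without KO replicate 1, and PTPN2 was not called when either library labelled KO was left out. SOCS6 and PIAS1 rose by 0.25 each, and neither was called when either library labelled KO was left out. With regional medians subtracted, PTPN11 differed by −0.05 and was not called (adjusted p = 0.568), SOCS2 differed by −0.24 and SOCS6 by 0.39, both called, and PIAS1 turned to −0.0024. SOCS3, the inhibitor that binds gp130, was not called, at 21.0 and 20.4 FPKM with the KO label and 21.6 and 23.4 FPKM in WT.

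**Figure D5:**
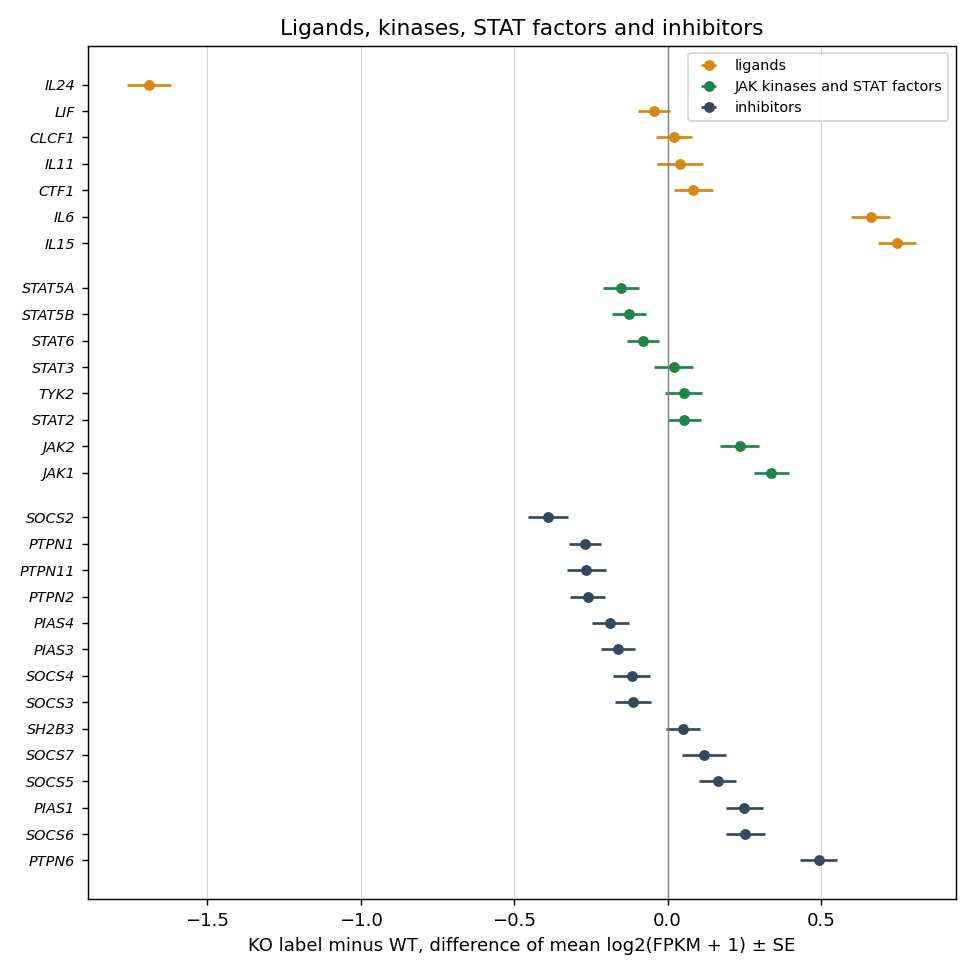
Difference between libraries labelled KO and WT in mean log2(FPKM + 1) with its SE for tested ligands (orange), JAK and STAT genes (green) and inhibitors (dark blue). IL24 stands at −1.69 and IL15 at 0.75, while JAK and STAT genes lie between −0.15 and 0.34.

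Adaptors and kinases below the receptors went both ways. Of 16 listed 15 were tested, 3 rose and 4 fell, or 46.7% beside 49.9% over all genes, with a median of −0.05. IRS1, an adaptor of the interleukin-4 receptor, rose to 15.6 and 15.3 FPKM with the KO label, against 12.7 and 12.1 FPKM in WT (log2 difference 0.30, SE 0.06, limma adjusted p = 0.00322). GAB2, an adaptor for SHP2 and PI3 kinase, fell to 3.83 and 3.74 FPKM, against 5.12 and 4.92 FPKM in WT (−0.33, SE 0.06, limma adjusted p = 0.00234), and the SRC-family kinase LYN fell by 0.33. IRS2 rose by 0.26 but was not called without KO replicate 2 (adjusted p = 0.11). SRC rose by 0.20, and SHC1 and GRB2 fell by 0.22 and 0.17. None of these 3 was called when either library labelled KO was left out. After subtraction of regional medians GAB2 differed by −0.22 and SRC by 0.31, both called. SHC1 (−0.15) and GRB2 (−0.12) were then not called (limma adjusted p = 0.0516 for SHC1 and 0.104 for GRB2).

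Listed target genes of gp130 and STAT3 moved in both directions. Of 18 genes 13 were tested, 4 rose and 5 fell, or 69.2% beside 49.9% over all genes, with a median of −0.07. VEGFA, the angiogenic growth factor, rose to 70.9 and 72.0 FPKM with the KO label, against 34.5 and 34.2 FPKM in WT (log2 difference 1.03, SE 0.05, limma adjusted p = 5.94e-06). HIF1A, the hypoxia factor, rose to 145.6 and 148.1 FPKM, against 102.7 and 93.7 FPKM in WT (0.58, SE 0.06). The immediate-early gene FOS rose by 0.51. MCL1, a survival gene, rose by 0.22 but was not called without KO replicate 2 (adjusted p = 0.185). TIMP1, a metalloprotease inhibitor, fell to 69.4 and 64.4 FPKM, against 83.6 and 92.8 FPKM in WT (−0.39, SE 0.07, limma adjusted p = 0.00202). JUNB fell by 0.43 and BCL6 by 0.35. CEBPB fell by 0.30 and its call was lost with either library labelled KO left out (adjusted p = 0.1 without KO replicate 1 and 0.0525 without KO replicate 2). With regional medians subtracted, JUNB differed by −0.26 and CEBPB by −0.09, and neither was called (adjusted p = 0.0539 for JUNB and 0.444 for CEBPB), while BCL6 differed by −0.21 and was called. Without WT replicate 2 CEBPB differed by −0.18. These genes respond to many other signals as well.

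Of the 18 target genes of interferon-gamma reported here 9 were tested, and 6 rose and 1 fell, or 77.8% beside 49.9% over all genes, with a median of 0.39. The guanylate-binding protein genes GBP1 and GBP2 rose by 0.88 and 0.55. GBP1 was at 16.7 and 18.3 FPKM with the KO label, against 9.46 and 8.61 FPKM in WT (SE 0.07, limma adjusted p = 5.56e-05). The immunoproteasome subunit PSMB9 rose by 0.68 and CD274, the checkpoint ligand PD-L1, by 0.59. ICAM1, an adhesion molecule, fell to 20.7 and 20.3 FPKM, against 36.4 and 36.4 FPKM in WT (−0.80, SE 0.05, limma adjusted p = 2.16e-05). IFNG itself had no fragment in any library.

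Of 16 target genes of interleukin-7, STAT5 and STAT6 only 7 passed the filter, of which 2 rose and 2 fell, or 57.1% beside 49.9% over all genes, with a median of 0.06. TGM2, a transglutaminase induced by interleukins 4 and 13, rose to 104.9 and 102.6 FPKM with the KO label, against 84.4 and 79.3 FPKM in WT (log2 difference 0.34, SE 0.05, limma adjusted p = 0.00148). CCL26, the STAT6-dependent chemokine eotaxin-3, fell to 1.04 and 1.19 FPKM, against 2.24 and 2.44 FPKM in WT (−0.66, SE 0.07, limma adjusted p = 0.000221). SOCS2 and MCL1, which this list shares with those above, were the other 2 called. Below the filter, CCND2 was lower with the KO label, at 0.11 and 0.10 FPKM against 0.45 and 0.46 FPKM in WT. BCL2 was also lower, at 0.44 and 0.46 FPKM against 0.84 and 0.74 FPKM in WT. SOCS1 and CISH were higher, and none of these groups overlapped. The others below the filter were at 0 or had only a few fragments.

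Regulators described for IL7R transcription in lymphocytes were partly present. Of 12 genes 9 were tested, 3 rose and 1 fell, or 44.4% beside 49.9% over all genes, with a median of −0.04; RUNX3, GFI1 and SPI1 were below the filter. FOXO1 fell to 1.06 and 0.989 FPKM with the KO label, against 1.80 and 1.53 FPKM in WT (log2 difference −0.39, SE 0.07, limma adjusted p = 0.00283). NFKB1 rose by 0.36, to 14.5 and 14.5 FPKM against 11.4 and 10.8 FPKM in WT (limma adjusted p = 0.00134). Its 20 Mb stretch had a median of 0.53, and with that subtracted the difference was −0.18, called lower (limma adjusted p = 0.04). RUNX1 rose by 0.19 and the glucocorticoid receptor gene NR3C1 by 0.18. Neither was called when either library labelled KO was left out.

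All 11 genes of receptor shedding and trafficking were tested, and 2 rose and 4 fell, or 54.5% beside 49.9% over all genes, with a median of 0.11. ADAM10, a sheddase of IL6R, rose to 18.4 and 19.4 FPKM with the KO label, against 13.5 and 12.5 FPKM in WT (log2 difference 0.51, SE 0.06, limma adjusted p = 0.000371); 0.14 was left after its regional median of 0.36 was subtracted (adjusted p = 0.0983). RNF41, a ubiquitin ligase that acts on type I cytokine receptors, fell by 0.40, to 6.72 and 6.56 FPKM against 9.20 and 8.94 FPKM in WT (limma adjusted p = 0.000799). The endosomal sorting genes STAM and HGS fell by 0.38 and 0.36, of which 0.06 was left for STAM after subtraction of its regional median (adjusted p = 0.443). RHBDF2, a cofactor of ADAM17, rose by 0.25 and RHBDF1 fell by 0.17. RHBDF2 was not called without KO replicate 1, and RHBDF1 was not called when either library labelled KO was left out. After subtraction of regional medians RHBDF1 differed by −0.05, and RNF41 (−0.23) and HGS (−0.21) were still called.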

How the data were processed

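RNA-seq of 2 KO and 2 WT libraries was analysed from 1 table of FPKM per gene that the authors deposited, keyed by Entrez ID. STAR, Subread and DESeq2 are named in the submitters' processing notes without versions; neither genome build nor strand is given there, and 98.4% of matched genes lay within 1000 bp of GRCh38.p14. Symbols came from RefSeq for 37708 of 39259 genes (96.0%). In each library the smallest nonzero product of FPKM and gene length was taken as 1 fragment. Dividing the products by it gave whole numbers for 100.0% of values (tolerance 0.001), which were used as fragment counts. The library totals and the intervals on fragments rest on that assumption. Genes averaging 1 FPKM or more were tested on log2(FPKM + 1) with limma 3.58.1 in R 4.3.3 (trended, robust empirical Bayes, KO minus WT, Benjamini-Hochberg over all genes tested), tested first on simulated data. DESeq2 was not run. Scaling, filters, pseudocounts, voom on fragments, a replicate block and leaving out each library were tried as alternatives. Replicates differed by more than sampling noise. Their chi-square per degree of freedom, near 1 for sampling noise alone, was 5.69 with the KO label and 8.23 in WT. The intervals on fragments leave that excess out. Named genes were the 10 members, up to 4 called genes in each direction per list without overlap between groups, ligands above the filter and the 5 nearest profiles to IL7R; partners such as JAK3, STAT3 and SOCS3 and neighbours were added after their values were seen. The members and lists were chosen with earlier results of these data known. Values of a few listed genes are not reported here.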

Additional observations from a re-analysis of the deposited data

How the results depend on the processing

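IL7R (−1.57 to −1.89) and IL13RA1 (0.36 to 0.75) kept their sign under all alternatives. Leaving out 1 library at a time, which in the group left with 1 library assumes that it varies like the other group, gave 1542 to 3104 genes higher and 1996 to 3973 genes lower with the KO label. Members past the threshold ranged from 1 to 3 on the higher side (LIFR and OSMR joined IL13RA1 without WT replicate 1) and from 1 to 2 on the lower side (IFNGR1 was lost without either library labelled KO). JAK, STAT and inhibitor genes past it ranged from 4 to 14, against 12 with all libraries. The counts of JAK, STAT and inhibitor genes cover the full lists of 29 genes, including a gene not reported above. IL11 ranged from −0.066 to 0.14 and CLCF1 from −0.016 to 0.058. A filter at a mean of 5 FPKM left 0 of the 5 calls by limma among other receptors, since none of those 5 genes reaches that mean. Without a filter IL6R joined the members called lower, making 3, and 7 other receptors were called. As above, nothing is read from these counts of members, because the members were chosen on this contrast. With the replicate block 5377 genes were called, against 5850 without it. Same-numbered libraries tended only weakly to deviate in opposite directions (correlation −0.225), and the crossed replicate block, chosen after seeing the data, called 6660. Subtracting regional medians, also chosen after seeing the data, reversed PIAS1 (−0.0024), NFKB1 (−0.18), VIM (0.10) and LIF (0.047). Of 62 named genes outside the set, 31 kept direction and side of the threshold under every alternative in which they were tested (a stricter filter left some out), 27 lost their call under at least 1 and 6 reversed under at least 1. Depth limits IL2RG and TSLP, which had only a few fragments. IL6R, CRLF2 and IL7 had more fragments but lay below the 1 FPKM filter, so they had no place in the main fit.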
